A study of Mus musculus with 21 samples.

Results

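The insulin-like growth factor (IGF) axis was followed in single-cell RNA-seq libraries of a mouse melanoma model through 10 genes, chosen by name: the ligands Igf1 and Igf2, the receptors Igf1r and Igf2r, and the binding proteins Igfbp2, Igfbp3, Igfbp4, Igfbp5, Igfbp6 and Igfbp7. All 10 were among the 32285 genes of the deposited count matrix. The 10 genes were chosen with earlier results of these data known, so the share of them called is not that of an independent list. Fragments of MT-ret melanoma were placed under the skin of mT/mG mice, whose Gt(ROSA)26Sor locus carries ACTB-tdTomato,-EGFP and which received no Cre, so that every host cell is red and the malignant melanoma (MM) cells carry no label. Compared were the tumor microenvironment (TME) of the primary tumor, the TME of lung metastases, the lung of unchallenged mT/mG mice without a tumor, and sorted tdTomato-negative MM cells of both tumor sites. TME cells were sorted as living tdTomato+ cells or as tdTomato+ CD45- cells, and the labels do not say which sort a library had, so the share of each cell type in a library is not read here. Mice of both sexes were used, cells had been frozen before sorting, and replicates 1-3 of each TME were 1 labelled library.

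IGF1 and IGF2 are secreted growth factors that signal through IGF1R, a receptor tyrosine kinase, while IGF2R, the mannose 6-phosphate receptor, takes up IGF2 for breakdown in lysosomes. IGF binding proteins hold the ligands in blood and tissue and can either lengthen their half-life or keep them from the receptor. IGFBP7 is a distant relative that binds IGFs weakly and is found in the basement membrane of blood vessels.

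The promoters of 3 binding proteins that were all higher in endothelial cells of the primary tumor than of the unchallenged lung are shown here as reference sequence, 5′ to 3′ on the strand of the gene, as the 250 bases before the RefSeq start in GRCm38.p6. Capitals mark 4 motifs searched on both strands: GGGCGG (a GC box), ACGTG (the core of a hypoxia response element, which E-box-like sites also hold), TATAAA and TATATA. Igfbp3 (minus strand, chr11:7213924-7214173) held 1 TATATA. Igfbp5 (minus strand, chr1:72874866-72875115) held none of the 4. Igfbp7 (minus strand, chr5:77408046-77408295) held 4 GGGCGG and 1 ACGTG.
Igfbp3: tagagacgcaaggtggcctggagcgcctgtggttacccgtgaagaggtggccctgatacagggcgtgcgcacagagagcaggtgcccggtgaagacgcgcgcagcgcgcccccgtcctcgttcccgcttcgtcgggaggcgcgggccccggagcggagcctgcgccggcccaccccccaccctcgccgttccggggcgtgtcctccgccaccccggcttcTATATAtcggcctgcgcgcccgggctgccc
Igfbp5: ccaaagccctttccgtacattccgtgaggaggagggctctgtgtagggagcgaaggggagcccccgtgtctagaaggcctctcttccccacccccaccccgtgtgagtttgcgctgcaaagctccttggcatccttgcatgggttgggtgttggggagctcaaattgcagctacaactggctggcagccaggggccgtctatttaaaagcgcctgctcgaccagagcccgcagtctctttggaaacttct
Igfbp7: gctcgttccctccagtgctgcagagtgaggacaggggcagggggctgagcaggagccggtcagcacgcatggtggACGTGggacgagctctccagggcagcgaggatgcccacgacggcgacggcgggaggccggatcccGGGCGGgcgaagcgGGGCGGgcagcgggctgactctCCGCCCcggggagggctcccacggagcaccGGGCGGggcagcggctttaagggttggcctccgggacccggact
Among 32851 RefSeq promoter windows of the same length, 32.7% held GGGCGG, 16.6% ACGTG, 12.4% TATAAA and 5.25% TATATA. A match is a run of letters and not a measured site. In the GENCODE vM21 annotation, Igfbp3 spans chr11:7206086-7213923 on the minus strand, Igfbp7 chr5:77349240-77408041 on the minus strand, and Igfbp2 (chr1:72824503-72852474, plus strand) and Igfbp5 (chr1:72857932-72874884, minus strand) are neighbours. Igf1 and Igf2 each overlap an antisense gene, Igf1os and Igf2os, and its part in their counts was not tested.

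The matrix held 110283 barcodes under 24 library names, of which 5 had values identical to another name and were used once, which left 100359 cells in 16 libraries. Totals were 2750267 to 27672199 UMIs (unique molecular identifiers) in the 4 metastasis TME libraries, 1777036 to 17577997 in the 4 primary tumor TME libraries, 6158006 to 53506609 in the 4 lung libraries and 2910056 to 60339415 in the 4 MM libraries. Cell types were named by markers and every name below means "marked as". GEO's tissue field says lung for every sample, also for the primary tumor, while AT-2 and ciliated cells were found in lung and metastasis libraries alone. Metastasis TME replicate 5 held 2132 MM cells although sorted as host cells, and metastasis MM replicate 4 had 294 MM cells among 638 cells. Levels are given as counts per 1000000 UMIs (CPM) of a cell type in a library, for libraries with at least 20 such cells. They come from the 3′ ends of transcripts, so levels of different genes are not compared. Fewer transcripts per cell and a smaller share of expressing cells cannot be told apart in such sums.

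Among the ligands, Igf1 (5704 UMIs in all) was highest in cells of fibroblast clusters and was also found in macrophages. Some endothelial cells of the primary tumor carried it too. An unnamed subcluster had a mean of 42.2 CPM (n = 3), and lymphatic cells had 91.7 CPM (n = 1, from 13 UMIs). Mean levels were 296 ± 76.7 CPM (SD, n = 3) in tumor CAFs (cancer-associated fibroblasts), 279 ± 225 CPM (n = 3) in fibroblasts with mesothelial markers, 249 ± 54.0 CPM (n = 3) in adventitial fibroblasts and 88.5 ± 25.5 CPM (n = 10) in C1q macrophages. The ranges of the 3 types from fibroblast clusters overlapped, while adventitial fibroblasts and C1q macrophages, next among types with at least 2 libraries, did not overlap. The cells with mesothelial markers had 8 of 8 mesothelial markers raised, 4 of them among their top 10 genes. Wt1 and Lgals7, which the paper lists for its metastasis CAFs, were in that top 10. Whether these cells are fibroblasts or mesothelial cells was not tested, here and below. Igf2 was close to absent, with 266 UMIs in all. It reached 28.8 ± 22.5 CPM (n = 3) in adventitial fibroblasts and 24.7 ± 5.36 CPM (n = 2) in arterial endothelial cells, 2 types whose ranges overlapped.

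Of the receptors, Igf1r was found at a mean of 20 CPM or more in all 29 types and subtypes. It was highest in neutrophils, at 422 ± 176 CPM (n = 10, of which 1 is a sorted MM library), followed by general capillary (gCap) endothelial cells at 213 ± 77.2 CPM (n = 6), with overlapping ranges. MM cells were last in this order, at 22.6 ± 12.4 CPM (n = 5, the 4 sorted MM libraries and the MM cells of metastasis TME replicate 5, which is from the mouse of metastasis MM replicate 5). Igf2r was highest in pericytes (262 ± 40.2 CPM, n = 3) and tumor CAFs (246 ± 53.5 CPM, n = 3), again overlapping. MM cells had 81.4 ± 21.8 CPM (n = 5) of Igf2r, rank 12 of 29.

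Among the binding proteins, Igfbp3 and Igfbp7 were highest in the same endothelial subcluster and Igfbp4 and Igfbp6 in the same fibroblasts, while Igfbp2 and Igfbp5 were highest elsewhere. Igfbp2 passed a mean of 20 CPM in ciliated cells alone, with 97.5 and 71.4 CPM in metastasis replicates 5 and 6 and 14.1, 42.8 and 38.3 CPM in lung replicates 1, 5 and 6. The metastasis values lay above the lung values, and the lowest lung value rested on 2 UMIs. Igfbp3 led in an unnamed endothelial subcluster marked by Adamts18 and Tacr1 (2702 ± 600 CPM, n = 3) and in a second unnamed one led by Ildr2 and Fabp5 (1459 ± 597 CPM, n = 2), whose ranges did not overlap. Igfbp4 led in adventitial fibroblasts, at 2665 ± 495 CPM (n = 3), ahead of arterial endothelial cells at 1730 ± 75.5 CPM (n = 2), without overlap. Igfbp5 was highest in fibroblasts with mesothelial markers (3031 ± 4703 CPM, n = 3), a mean set by lung replicate 6 at 8462 CPM, and in tumor CAFs (2367 ± 824 CPM, n = 3). Ciliated cells also carried Igfbp5, at 848 ± 243 CPM (n = 5). Igfbp6 was highest in adventitial fibroblasts (1730 ± 646 CPM, n = 3) and fibroblasts with mesothelial markers (1181 ± 973 CPM, n = 3), which overlapped. Igfbp7 was highest in the Adamts18 Tacr1 subcluster (5404 ± 1250 CPM, n = 3), pericytes (4710 ± 1239 CPM, n = 3) and aerocytes (3814 ± 2104 CPM, n = 6), the capillary cells specialized for gas exchange, and these 3 overlapped. Along the 28 neighbouring pairs of each order, ranges did not overlap in 4 pairs for Igfbp4, in 3 for Igf1, Igfbp3 and Igfbp7, in 2 for Igf2, Igf1r and Igfbp2, in 1 for Igf2r and Igfbp5 and in 0 for Igfbp6. These orders include types with 1 library, whose range is a single value, so pairs with such a type can hardly overlap. The same counts were not made over all genes, and nothing is concluded from them.

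**Figure D1:**
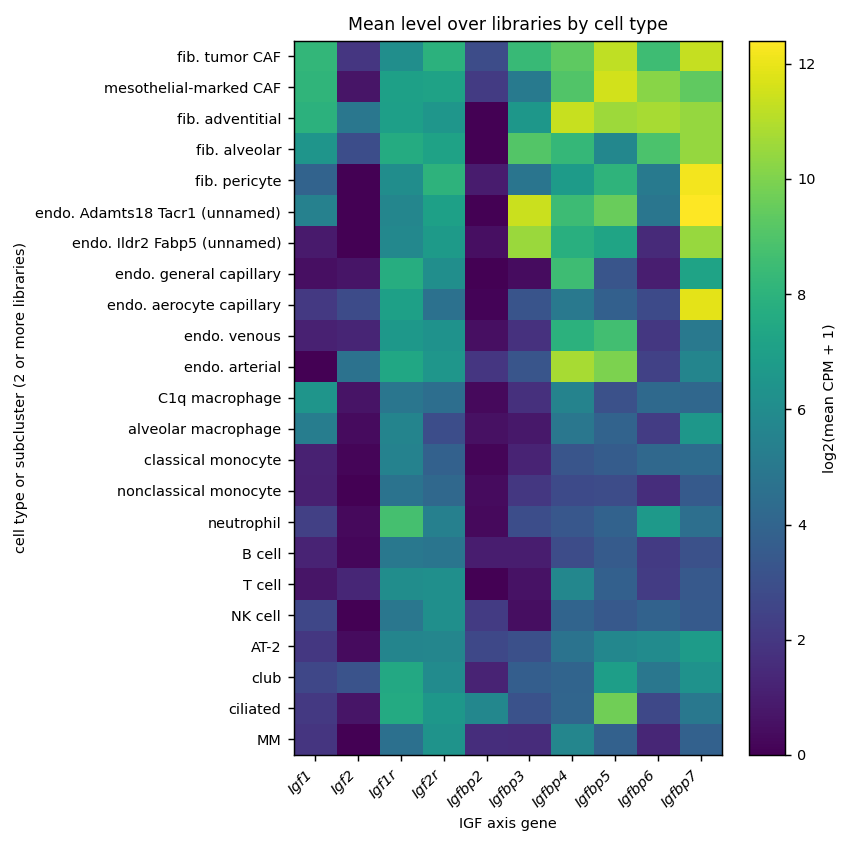
Mean level of each of the 10 genes (columns) in each cell type or subtype with at least 2 libraries (rows), apart from an unnamed cluster led by Col2a1, as log2(mean CPM + 1), with the mean taken over libraries, shown by colour. Igfbp2 stands out in ciliated cells, Igfbp3 in tumor endothelial subclusters and fibroblasts, Igfbp6 in fibroblasts, and Igf1r is present in every row.

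Fibroblasts, endothelial cells and macrophages (alveolar and C1q together) of the same TME and lung libraries were then compared in 1 fit with the library as a block (edgeR's quasi-likelihood test, Benjamini-Hochberg over all 10500 genes tested, called at an adjusted p below 0.05). Of the 8 members tested, 5 were called between fibroblasts and endothelial cells, all higher in fibroblasts, against 33.8% of all genes. The log2 differences were 6.76 for Igfbp6 (SE 0.734, adjusted p = 4.43e-07), 4.98 for Igf1 (SE 0.625, adjusted p = 2.64e-06), 1.72 for Igfbp5 (SE 0.428, adjusted p = 0.0034), 1.14 for Igf2r (SE 0.210, adjusted p = 0.000202) and 1.02 for Igfbp4 (SE 0.346, adjusted p = 0.0265). The call of Igfbp4 was lost without metastasis replicate 5 or 6 or lung replicate 5 or 6 (0.77 to 0.97, adjusted p up to 0.0995), with at least 10 cells a sum (0.82, adjusted p = 0.0988) and with the members kept among the clustering genes (0.91, adjusted p = 0.0521). Against macrophages, fibroblasts were higher for 7 of 8 members (52.3% of all genes were called), from 1.82 for Igf1r to 6.40 for Igfbp3, and the difference of Igf1 was 1.16 (SE 0.626, adjusted p = 0.129). Endothelial cells were higher than macrophages for 6 members and lower for Igf1 (58.7% of all genes were called). Their Igf1 difference was -3.82 (SE 0.637, adjusted p = 3.05e-05), and the largest difference upwards was 7.35 for Igfbp3 (SE 1.47, adjusted p = 0.000228). That value pools tissues that differed. Mean Igfbp3 in endothelial cells was 3.08 CPM in the lung, 290 CPM in metastases and 2179 CPM in the primary tumor. In macrophages it was 1.27, 1.07 and 5.25 CPM, so the 2 types were close in the lung. The 3 contrasts share their libraries.

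In endothelial cells, 7 of the 8 members tested differed between the primary tumor and the unchallenged lung, 6 higher and 1 lower in the tumor, against 28.2% of the 9690 genes tested. Igf1, Igfbp3 and Igfbp6 were near the floor in the lung and passed the filter on low counts through tumor libraries. The count of members called is thus not independent of that filter, and nothing is concluded from it beside the share of all genes. The endothelial sums held different subtypes in each tissue. In this and the later endothelial comparisons, the parts of subtype makeup and of change within a subtype were not tested. Igfbp3 had 2013, 2057, 1702 and 2942 CPM in primary tumor replicates 1-3, 4, 5 and 6 and 5.03, 0.863, 1.35 and 5.10 CPM in lung replicates 1, 4, 5 and 6. Every tumor library lay far above every lung library. The log2 change was 9.85 (SE 1.05, adjusted p = 1.5e-05), and it held at 9.40 to 10.8 in each of 18 alternatives.

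Igfbp5, a binding protein stored in extracellular matrix, had 563, 794, 624 and 623 CPM in the tumor and 30.8, 59.7, 96.9 and 182 CPM in the lung (log2 change 2.96, SE 0.683, adjusted p = 0.00455). Igfbp7 had 3807, 5110, 4598 and 4101 CPM against 2223, 1082, 809 and 577 CPM (log2 change 2.02, SE 0.419, adjusted p = 0.00215). Neither gene's groups overlapped. Igfbp6, which prefers IGF2, was low in both tissues, with 0, 12.8, 19.9 and 55.7 CPM in the tumor and 0.335, 0.432, 2.70 and 5.95 CPM in the lung. These groups did overlap, since replicate 1-3 of the tumor had 0 UMIs, which allows up to 11.98 CPM, and the log2 change was 3.91 (SE 0.901, adjusted p = 0.00454). Igf1 had 24.0, 34.4, 46.9 and 55.0 CPM in the tumor and 0.670, 0.432, 0.675 and 3.40 CPM in the lung, where 2 to 4 UMIs per library were counted. The tumor libraries all lay above the lung libraries (log2 change 5.65, SE 0.566, adjusted p = 1.01e-05).

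The receptors moved in opposite directions. Igf1r was 47.9, 44.6, 45.5 and 44.4 CPM in the tumor and 106, 184, 205 and 223 CPM in the lung, and fell by 1.87 on the log2 scale (SE 0.304, adjusted p = 0.000358). Igf2r was 91.9, 103, 102 and 120 CPM against 49.9, 47.9, 57.7 and 61.2 CPM and rose by 1.08 (SE 0.206, adjusted p = 0.00119). Groups did not overlap for either receptor. Igfbp4, which blocks IGF action until PAPP-A cuts it, had 337 to 477 CPM in the tumor and 272 to 358 CPM in the lung (log2 change 0.49, SE 0.214, adjusted p = 0.106). Within each of the 3 runs that the library names give, the log2 ratio had the same sign as the pooled change for 6 of the 7 called members, such as 8.38 to 10.1 for Igfbp3, 2.15 to 4.15 for Igfbp5, 0.776 to 2.65 for Igfbp7 and -2.22 to -1.13 for Igf1r. For Igfbp6 it did so in 2 of 3 runs (-0.42 to 3.26).

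Transcripts of other cell types were also higher in the tumor endothelial sums. The 9 fibroblast markers summed to 747 to 2448 CPM in the primary tumor and 50.8 to 522 CPM in the lung, all 9 detected in both. The 10 pericyte or smooth muscle markers summed to 272 to 499 CPM against 15.1 to 73.4 CPM, again all detected. The 11 endothelial markers summed to 7896 to 8571 CPM against 14193 to 16509 CPM. The part of these in the values of Igf1, Igfbp5, Igfbp6 and Igfbp7 was not tested. Leaving out the endothelial subclusters led by markers of another type kept the calls of Igf1, Igfbp3, Igfbp5, Igfbp7, Igf1r and Igf2r, and Igfbp6 did not pass the filter on low counts there.

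In endothelial cells of lung metastases, Igfbp3 was the 1 member of 8 called against the unchallenged lung (3.37% of all genes were called). It had 52.7, 28.9, 490 and 590 CPM in metastasis replicates 1-3, 4, 5 and 6, against the lung values above. All 4 metastasis libraries were above all 4 lung libraries, with replicates 5 and 6 higher than replicates 1-3 and 4. The log2 change was 6.95 (SE 0.960, adjusted p = 0.00115), 6.44 to 7.75 in 18 alternatives that all kept the call, and within the runs the log2 ratio was 3.16 to 7.0. The changes of the other 7 members tested were 1.87 for Igf1 (adjusted p = 0.191), 1.32 for Igfbp5 (adjusted p = 0.309), 1.88 for Igfbp6 (adjusted p = 0.339), -0.26 for Igfbp4 (adjusted p = 0.582), -0.30 for Igfbp7 (adjusted p = 0.766), -0.63 for Igf1r (adjusted p = 0.266) and 0.46 for Igf2r (adjusted p = 0.268).

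Between metastasis and primary tumor, 5 of 8 members were called in endothelial cells, against 11.9% of all genes. This comparison shares its libraries with the comparisons against the lung. It also sets different subtypes against each other. The endothelial sums kept subclusters led by markers of another type. These held 630 of 1178 and 114 of 210 endothelial cells in metastasis replicates 5 and 6, and 103 of 257 in primary tumor replicate 6. In lung replicates 5 and 6 they held 250 of 1746 and 105 of 528. The largest such subcluster, of 751 cells, had 5 MM markers among its top 10 genes. The paper states that its metastasis samples held a little adjacent tissue free of tumor. In metastasis replicates 1-3 and 4, gCap cells were 76 of 95 and 92 of 133 endothelial cells. No primary tumor library had enough gCap, aerocyte or venous cells for a sum. The part of this makeup in the changes below was not tested. Igf1 had 0, 0, 3.53 and 5.42 CPM in the metastasis libraries, below every primary tumor library (log2 change -3.78, SE 0.581, adjusted p = 0.000855). The 2 counts of 0 allow up to 15.8 and 4.57 CPM. Igfbp7 had 685, 726, 1487 and 711 CPM, also below every primary tumor library (log2 change -2.32, SE 0.424, adjusted p = 0.00255). Both calls held in all 18 alternatives. Igfbp3 was lower in metastases by a log2 change of -2.89 (SE 0.740, adjusted p = 0.0193), and the groups did not overlap. Its call was lost without primary tumor replicate 6 (-2.71, adjusted p = 0.0511) and without the subclusters led by another type (-2.27, adjusted p = 0.126). Igf1r was higher in metastases, at 163, 151, 55.8 and 103 CPM, without overlap (log2 change 1.24, SE 0.314, adjusted p = 0.0188). It kept its call in 13 of 18 alternatives and lost it without metastasis replicate 4, without primary tumor replicate 4, 5 or 6, and without the subclusters led by another type (adjusted p up to 0.118). Igfbp4 was lower, at 232, 344, 218 and 206 CPM, with overlap (log2 change -0.75, SE 0.218, adjusted p = 0.0378). Its call held in 9 of 18 alternatives and was lost without metastasis replicate 1-3 or 6, primary tumor replicate 4, 5 or 6, or lung replicate 5 or 6, without the subclusters led by another type, and without the filter on low counts (adjusted p up to 0.137). With the replicate number as a block, Igfbp5 was also called (log2 change -2.14, adjusted p = 0.0273), beside -1.64 (SE 0.655, adjusted p = 0.133) without it. Replicates 1-3, 5 and 6 of both tissues share mice, in part for 1-3. MM markers summed to 472 to 7635 CPM in metastasis and 224 to 1706 CPM in primary tumor endothelial cells, against 7.05 to 18.8 CPM in the lung, and their part was not tested.

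**Figure D2:**
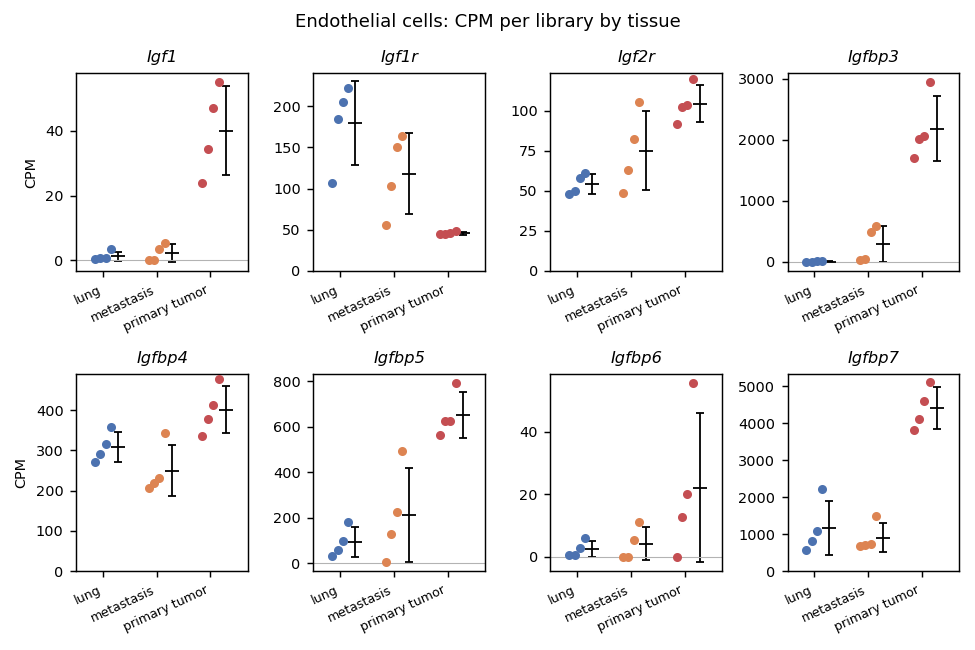
Level of 8 members in endothelial cells (CPM, 1 panel per gene) in unchallenged lung, lung metastasis and primary tumor; points are libraries (n = 4 per tissue), bars the mean and SD. For Igfbp3, the primary tumor libraries sit between 1702 and 2942 CPM and every metastasis library lies above every lung library. For Igf1r the primary tumor libraries lie below all others, and metastasis and lung overlap.

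The binding proteins were also read in endothelial subclusters, some of which stayed unnamed. Their cells were not clustered on the members, but the subclusters differ between tissues, so the values are given without a test. The Ildr2 Fabp5 subcluster came from metastasis replicates 5 and 6 and had 1037 and 1881 CPM of Igfbp3. It had 4 of 6 markers of tip cells raised, but 0 of them and 1 MM marker among its top 10 genes, and it was left unnamed. The Adamts18 Tacr1 subcluster, which had 3 of 7 venous markers raised but 0 of them and 1 pericyte or smooth muscle marker among its top 10 genes, and stayed unnamed, came from primary tumor replicates 4, 5 and 6 and had 2504, 2226 and 3376 CPM. Metastasis gCap cells, from replicates 1-3 and 4, had 0 UMIs of Igfbp3 in 76 and 92 cells, which allows up to 22.9 and 6.95 CPM, and venous cells of the 4 lung libraries had 0 to 7.87 CPM. Igfbp3 was thus higher in these tumor subclusters than in gCap and lung venous cells, without overlap.

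Igfbp7 was divided within the capillary bed itself. Aerocytes had 6872, 5835, 2449 and 1524 CPM in lung replicates 1, 4, 5 and 6 and 3636 and 2567 CPM in metastasis replicates 5 and 6. gCap cells had 235, 203, 76.4 and 133 CPM in the lung and 122 and 99.6 CPM in metastasis replicates 1-3 and 4, so the 2 capillary types did not overlap in either tissue. The Adamts18 Tacr1 subcluster had 6122, 6130 and 3960 CPM. Igfbp5 had 197 to 754 CPM in lung venous cells, 677 to 900 CPM in the Adamts18 Tacr1 subcluster, and 33.3 and 270 CPM in the Ildr2 Fabp5 subcluster. Since metastasis gCap cells came from replicates 1-3 and 4 and the Ildr2 Fabp5 subcluster and aerocytes from replicates 5 and 6, the makeup of the endothelial sums differed between metastasis libraries.

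**Figure D3:**
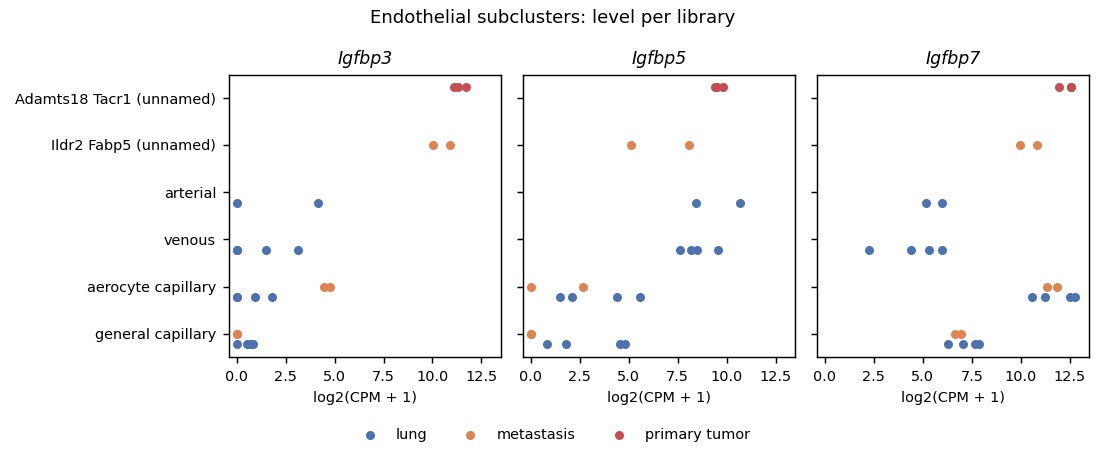
Igfbp3, Igfbp5 and Igfbp7 in endothelial subclusters, as log2(CPM + 1) per library, with colour for tissue. Igfbp3 is high in the unnamed Ildr2 Fabp5 and Adamts18 Tacr1 subclusters and low in gCap and venous cells, where the highest library had 7.87 CPM, while Igfbp7 is high in aerocytes and low in gCap cells.

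Fibroblasts, including CAFs, mural cells and cells with mesothelial markers, were compared over 2 metastasis, 3 primary tumor and 3 lung libraries. Of the 10 members, 9 passed the filter on low counts (Igfbp2 did not). Of all fibroblast-cluster cells, 3542 of 5338 lay in subclusters led by another type and were left out. The cells kept were of different subtypes in each tissue, so the changes below set different subtypes against each other. Tumor CAFs were 128 of 191, 102 of 128 and 612 of 639 cells in primary tumor replicates 4, 5 and 6, cells with mesothelial markers were 212 of 432 and 31 of 49 in metastasis replicates 5 and 6, and lung replicate 5 had 96 adventitial and 31 alveolar among 150 cells. The parts of subtype makeup and of change within a subtype were not tested. Between primary tumor and lung 4 members were called, 2 higher and 2 lower, against 17.8% of 10229 genes. Igf1r had 59.7, 68.3 and 73.4 CPM in primary tumor replicates 4, 5 and 6 and 204, 188 and 241 CPM in lung replicates 4, 5 and 6. The groups were far apart (log2 change -1.54, SE 0.296, adjusted p = 0.00429), and the call held in 15 of 15 alternatives. Igf2 had 2.67, 5.47 and 0.602 CPM (3, 4 and 2 UMIs) in the tumor and 11.1, 45.0 and 17.2 CPM (3, 43 and 6 UMIs) in the lung. The groups did not overlap, and the log2 change of -3.55 (SE 0.826, adjusted p = 0.0117) rested on these few UMIs. It was not called without primary tumor replicate 6 (-2.71, adjusted p = 0.0531) or when the members were kept among the clustering genes (-3.22, adjusted p = 0.0876).

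Igf2r rose by 1.16 on the log2 scale (SE 0.324, adjusted p = 0.0283), with 196, 241 and 259 CPM in the tumor and 100, 110 and 123 CPM in the lung, without overlap. This call was lost without primary tumor replicate 5 or 6 or lung replicate 4, 5 or 6 (adjusted p up to 0.102). Igfbp7 rose by 1.60 (SE 0.472, adjusted p = 0.0362), with 4526, 1968 and 2335 CPM against 1257, 1177 and 722 CPM, again without overlap. It was lost without primary tumor replicate 4 (1.10, adjusted p = 0.148), without primary tumor replicate 6 or lung replicate 4 or 5, without lung replicate 6 (1.35, adjusted p = 0.170), when the members were kept among the clustering genes (1.82, adjusted p = 0.0862), and when all fibroblast-cluster cells were used (1.83, adjusted p = 0.0941). Pericyte and smooth muscle markers in these sums ranged from 1070 to 5975 CPM in the primary tumor and 1530 to 2040 CPM in the lung. Pericytes also carried Igfbp7, and without the mesothelial, pericyte and smooth muscle subclusters its change was 1.31 (adjusted p = 0.0431), still called.

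Between metastasis and lung 2 of 9 members were called, both lower in metastasis, against 6.17% of all genes. Igf1r had 56.1 and 104 CPM in metastasis replicates 5 and 6 (log2 change -1.41, SE 0.350, adjusted p = 0.0371). Igfbp3 had 37.0 and 125 CPM, against 686, 272 and 358 CPM in the lung (log2 change -2.47, SE 0.653, adjusted p = 0.0473). For neither of these genes did the groups overlap. Igf2 had 2.24 and 0 CPM (4 and 0 UMIs) in metastasis, below every lung library, with a log2 change of -3.76 (SE 1.05, adjusted p = 0.0575) that was called with the replicate number as a block (-4.37, adjusted p = 0.0150). The calls of Igf1r and Igfbp3 each held in 7 of 14 alternatives: Igf1r lost it without metastasis replicate 5 (-1.01, adjusted p = 0.206), primary tumor replicate 5 or 6 or lung replicate 5 or 6, and Igfbp3 without metastasis replicate 5 (-1.76, adjusted p = 0.259), primary tumor replicate 5 or lung replicate 4, 5 or 6. Both were also lost with the members kept among the clustering genes and with all fibroblast-cluster cells. Igf1 had 213 and 432 CPM in metastasis, 252, 317 and 213 CPM in the primary tumor and 100, 150 and 180.5 CPM in the lung. Its log2 changes against the lung were 1.18 (adjusted p = 0.114) in metastasis and 0.95 (adjusted p = 0.100) in the primary tumor, although every tumor library lay above every lung library. Mesothelial markers summed to 997 to 1049 CPM in metastasis, 10.7 to 16.9 CPM in the primary tumor and 241 to 1146 CPM in the lung fibroblasts.

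Between metastasis and primary tumor 0 of 9 members were called by edgeR, against 4.22% of all genes, while 1589 genes had an unadjusted p below 0.05. DESeq2 called 1 member, Igfbp3 (log2 change -1.92, adjusted p = 0.0278), for which edgeR gave -1.99 (SE 0.638, adjusted p = 0.126). Igfbp5 had 403 and 489 CPM in metastasis and 2099, 1275 and 2213 CPM in the primary tumor, without overlap (log2 change -2.11, SE 0.850, adjusted p = 0.243).

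By subtype, Igfbp3 in fibroblasts was 911, 417 and 809 CPM in alveolar fibroblasts of the lung, 36.9 CPM in those of the single metastasis library with enough cells, and 240, 252 and 499 CPM in tumor CAFs. Adventitial fibroblasts had 2207 to 3190 CPM of Igfbp4 and 1107 to 2396 CPM of Igfbp6 over 3 libraries of lung and metastasis. Igfbp6 was also carried by fibroblasts with mesothelial markers, at 2215 CPM in lung replicate 6 and 1047 and 282 CPM in metastasis replicates 5 and 6, and by alveolar fibroblasts, at 822 CPM in metastasis replicate 5 and 141, 533 and 405 CPM in lung replicates 4, 5 and 6. Igfbp5 in fibroblasts with mesothelial markers was 8462 CPM in the single lung library and 334 and 296 CPM in metastasis. These values describe few libraries and carry no test.

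**Figure D4:**
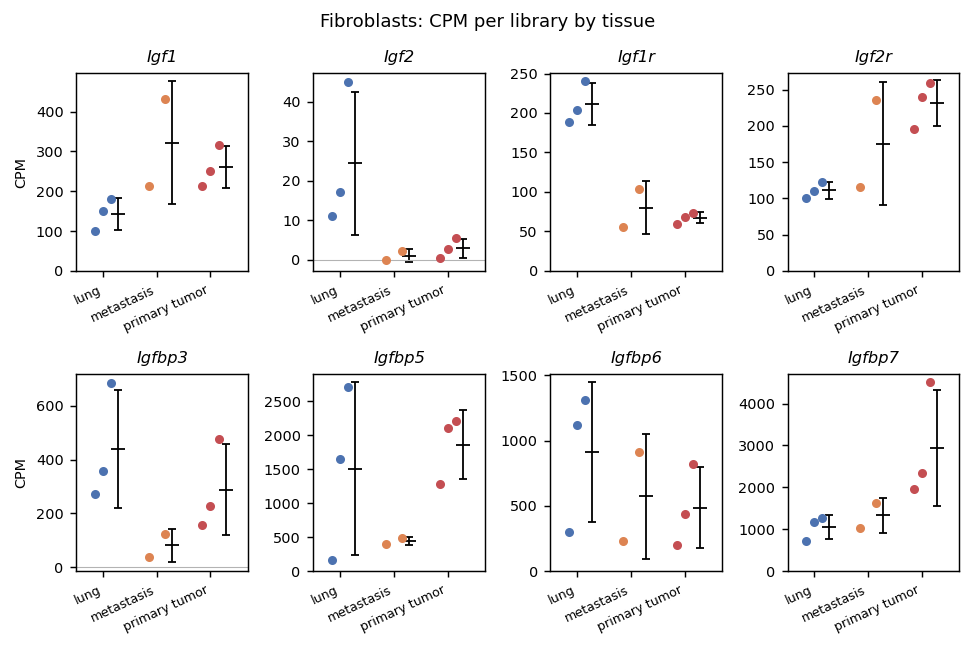
Level of 8 members in fibroblasts (CPM, 1 panel per gene) by tissue; points are libraries (3 lung, 2 metastasis, 3 primary tumor), bars the mean and SD. Igf1r is lower and Igf2r higher in the primary tumor than in the lung, and Igfbp3 is lowest in metastasis replicate 5.

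Igfbp3 therefore had one order of tissues in endothelial cells and another in fibroblasts, and the difference was tested directly. This interaction test, added after the values were seen, compared the tissue change of endothelial cells with that of fibroblasts from the 8 libraries with enough cells of both types, with the library as a block and 9 members tested. Its metastasis libraries were replicates 5 and 6, which had the higher endothelial levels of Igfbp3 (490 and 590 CPM), while replicates 1-3 and 4 (52.7 and 28.9 CPM) did not enter. The difference for metastasis is larger than the separate fits of endothelial cells (6.95) and fibroblasts (-2.47) give. The part of the libraries left out in this was not tested. Against the lung, 1 member was called for metastasis (3.62% of 11913 genes) and 4 for the primary tumor (16.2%). The endothelial change of Igfbp3 exceeded the fibroblast change by 10.96 on the log2 scale for metastasis (SE 0.747, adjusted p = 2.11e-06) and by 11.03 for the primary tumor (SE 0.652, adjusted p = 7.97e-08). For the primary tumor the excess was 5.78 for Igf2 (SE 0.924, adjusted p = 0.000513), 4.66 for Igf1 (SE 0.476, adjusted p = 1.08e-05) and 4.76 for Igfbp6 (SE 0.845, adjusted p = 0.00116). Each of these 5 values kept its call in 13 of 13 alternatives. The sums of Igf2 are of few UMIs. In replicates 4, 5 and 6, endothelial cells had 5.10, 28.4 and 12.1 CPM (4, 20 and 16 UMIs) in the primary tumor and 2.45, 3.04 and 3.40 CPM in the lung. The Adamts18 Tacr1 subcluster of these primary tumor libraries had 0 UMIs of Igf2. In fibroblasts, as given above, Igf2 was lower in the tumor, and that change also enters the difference.

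C1q macrophages had Igf1 at 111, 75.1, 105 and 47.7 CPM in metastasis replicates 1-3, 4, 5 and 6, 87.0 and 75.7 CPM in primary tumor replicates 1-3 and 4, and 51.6, 110, 122 and 101 CPM in the 4 lung libraries. The 3 tissues overlapped, and the log2 changes were 0.06, -0.16 and -0.22 with adjusted p of 0.999979, 0.822 and 0.727 for metastasis against primary tumor, metastasis against lung and primary tumor against lung. Igfbp6 differed: 30.0, 25.05, 22.2 and 28.2 CPM in metastasis and 39.2 and 30.2 CPM in the primary tumor, against 0, 0, 2.54 and 2.90 CPM in the lung. All tumor libraries were above all lung libraries. It was the 1 member of 6 tested that was called in metastasis against lung (log2 change 3.93, SE 0.551, adjusted p = 0.000482, 7.19% of all genes called) and in primary tumor against lung (4.25, SE 0.517, adjusted p = 0.000238, 8.55% of all genes called), in 15 of 15 alternatives each. Between metastasis and primary tumor edgeR called 0 members and 0 of 7144 genes, with 358 genes at an unadjusted p below 0.05. DESeq2 called 18 genes in that comparison.

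Some metastasis and lung values of Igfbp6 in C1q macrophages rested on 0 to 4 UMIs, and the 2 lung libraries at 0 allow up to 11.1 and 6.99 CPM. Over monocytes, B, T and NK cells and neutrophils of the same tissues, Igfbp6 had a median of 4.07 CPM (0 to 31.1) in the lung, 6.71 CPM (0 to 214) in metastasis and 16.1 CPM (0 to 92.9) in the primary tumor, each time highest in neutrophils. Classical monocytes of metastasis replicates 1-3 and 5, with 75.3 and 43.4 CPM, and NK cells of metastasis replicates 1-3, with 50.5 CPM from 4 UMIs, also lay above the C1q macrophages. The C1q values were thus within the range of other leukocytes, and the part of free RNA in any of these values was not tested. Fibroblast markers in C1q macrophages summed to 50.8 to 115 CPM in the lung, 36.8 to 336 CPM in metastasis and 53.2 to 161 CPM in the primary tumor, and their part was not tested.

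Neutrophils, where a fit was not planned, had 212, 132 and 214 CPM of Igfbp6 in metastasis replicates 1-3, 5 and 6, 92.9 and 32.3 CPM in the primary tumor and 31.1, 0, 12.1 and 24.7 CPM in the lung, so metastasis lay above the other tissues. Their Igf1r was 347, 158 and 372 CPM in metastasis, 279 and 335 CPM in the primary tumor and 280, 578, 624 and 666 CPM in the lung, with overlap through lung replicate 1. These values carry no test.

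**Figure D5:**
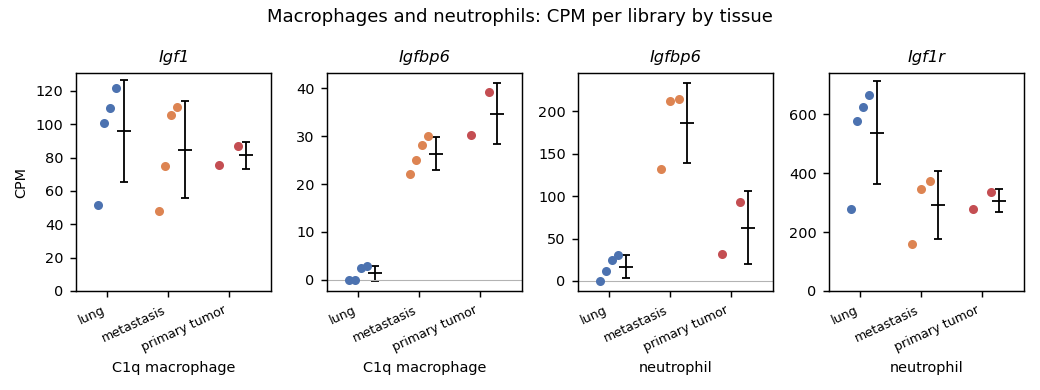
Igf1 and Igfbp6 in C1q macrophages and Igfbp6 and Igf1r in neutrophils (CPM) by tissue; points are libraries, bars the mean and SD. Igf1 in C1q macrophages overlaps between tissues, while Igfbp6 is above the lung in every tumor library.

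Sorted MM cells of metastasis and primary tumor (2 libraries each) differed in 0 of 9 members tested and 0 of 14332 genes by edgeR, with 422 genes at an unadjusted p below 0.05 and 29 genes called by DESeq2. Igf2r, the receptor with the most UMIs from MM cells, had 84.5 and 86.3 CPM in metastasis and 47.5 and 108 CPM in the primary tumor, which overlapped (log2 change 0.16, SE 0.372). Igf1r had 42.6 and 15.3 CPM against 12.1 and 26.4 CPM. Igf1 stayed between 0.598 and 4.51 CPM in all 4 libraries, and Igf2 between 0 and 0.0175 CPM. Igfbp5 had 9.03 and 6.98 CPM in metastasis and 24.3 and 14.1 CPM in the primary tumor, without overlap (log2 change -1.40, SE 0.445, adjusted p = 0.999987).

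Igfbp7 in MM cells had 40.0 CPM in metastasis replicate 4 and 2.23 CPM in replicate 5, against 1.73 and 3.11 CPM in the primary tumor. The library of 294 MM cells thus set the log2 change of 2.97 (SE 0.944, adjusted p = 0.999987), which was -0.16 without it and 2.75 to 4.12, called each time, without another library. With the replicate number as a block the change was 1.94 (adjusted p = 0.0112). Endothelial markers were also present in the sorted MM cells, at 119 and 123 CPM in metastasis and 82.1 and 149 CPM in the primary tumor.

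Genes that act with these members were read from a list of 32 (docking proteins, kinases, proteases, growth hormone input and imprinting), also chosen with earlier results of these data known. In endothelial cells of the primary tumor against the lung 13 of 21 tested were called, 8 higher and 5 lower (28.2% of all genes). Stc1, an inhibitor of PAPP-A, rose by 4.56 (SE 0.350), Htra1, a secreted protease that cuts binding proteins, by 3.96 (SE 0.579), and Insr, the insulin receptor, by 2.05 (SE 0.316). The adaptor Grb14 fell by 6.86 (SE 0.516), Irs1, a docking protein of IGF1R and the insulin receptor, by 3.66 (SE 0.931) and Ghr, the growth hormone receptor, by 2.40 (SE 0.313). In metastasis against lung 2 of 21 were called (3.37% of all genes), both lower, Grb14 (-1.30, SE 0.280) and Ghr (-1.14, SE 0.288), and between metastasis and primary tumor 8 of 21 (11.9% of all genes), 2 higher and 6 lower, with Grb14 at 5.56 and Stc1 at -3.29.

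In fibroblasts 9 of 27 were called between primary tumor and lung (17.8% of all genes), 4 higher and 5 lower. The imprinted RNA H19 rose by 3.27 (SE 0.612) and Igf2bp2, which binds the Igf2 transcript, by 3.07 (SE 0.743), while Pappa, the protease PAPP-A that cuts IGFBP4, fell by 2.67 (SE 0.473) and Foxo1 by 1.79 (SE 0.297). In metastasis against lung 3 of 27 were called (6.17% of all genes): H19 rose by 3.89 (SE 0.638), Pappa rose by 2.15 (SE 0.405) and Foxo1 fell by 1.37 (SE 0.351). Between metastasis and primary tumor 2 of 27 were called (4.22% of all genes), Pappa at 4.83 (SE 0.443) and Irs1 at -2.02 (SE 0.456). In C1q macrophages 3 of 15 were called in metastasis against lung (7.19% of all genes), Ctsd (1.86, SE 0.419), Pik3r1 (-1.01, SE 0.291) and Pik3ca (-0.91, SE 0.266), 0 of 15 in primary tumor against lung (8.55% of all genes), and 0 of 15 between metastasis and primary tumor and 0 of 24 in MM cells, where edgeR called 0 of all genes. Within libraries, 12 of 25 were called between fibroblasts and endothelial cells (33.8% of all genes), 15 of 25 between fibroblasts and macrophages (52.3%, a share close to that of the list) and 22 of 25 between endothelial cells and macrophages (58.7%).

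The median log2 change over the members tested was 2.49 in endothelial cells of primary tumor against lung, beside -0.03 over all genes. It was 0.89 beside 0.01 for metastasis against lung, and -1.84 beside 0.06 for metastasis against primary tumor. Igf1, Igfbp3 and Igfbp6 were near the floor in lung endothelial cells and passed the filter on low counts through libraries of the primary tumor or metastases. The medians and the counts of calls in endothelial cells are thus not independent of that filter. In fibroblasts the medians of the members were -0.48, -0.61 and -0.21 for the same 3 contrasts, beside 0.04, 0.03 and 0.00.

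The genes whose levels most resembled a member's were ranked over 23 named cell types and subtypes, as the correlation of log2(mean CPM + 1) among 12667 genes, a description of types that share libraries. The unnamed subclusters, where Igfbp3 and Igfbp7 were highest, are not among them. When they were included (29 types, a setting added after the values were seen), all 3 nearest genes changed for Igfbp3, Igfbp7 and Igf1r, and of the other members Igfbp2 alone kept all 3. Igfbp3 was closest to Plekha4 (r = 0.92), Serping1 and Col3a1, a fibrillar collagen, and with the unnamed subclusters to Lamb1 (r = 0.89), Lama4 and Hspg2, which encode proteins of basement membranes. Igfbp7 was closest to Vasn (r = 0.90), Tnxb and Syn3, and with the unnamed subclusters to Col4a1 (r = 0.87), Fam171a2 and Lamc1. Igfbp5 was closest to Tshz2 (r = 0.91), Kank1 and Sned1, Igfbp6 to Podn (r = 0.92), Gpc3 and Lgi2, and Igfbp4 to Crtap (r = 0.91), Dsel and Hoxaas2. Igf1 was closest to Htra3 (r = 0.88), Cercam and Col14a1, and Igf2 to Arsj (r = 0.81), Abi3bp and Tmem158. Igf2r was closest to Maged2 (r = 0.86), Farp1 and Osbpl5, Igf1r to Myo1d (r = 0.77), Ifit1 and Fbxo31 (with the unnamed subclusters Mtus1, Dhrs7 and Amotl2), and Igfbp2 to Col8a2 (r = 0.87), Trp53bp2 and Rbp2.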

How the data were processed

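Cells of primary tumors, lung metastases and unchallenged lungs were dissociated, sorted and profiled with 10x Chromium 3′ v3.1 chemistry. The authors aligned the reads with Cell Ranger 6.1.1 to GRCm38 and processed the cells with Seurat 3.2.2, and deposited raw UMI counts per gene and cell, which were used here, beside a normalised matrix that was not. The deposited barcodes were used with no further filter, and no doublet caller was run. The authors' notes describe quantile limits on mitochondrial and ribosomal shares and on detected genes.

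Of 24 library names, 5 held values identical to another and were counted once. The names of replicates 1-3 were summed to 1 library for each TME. The 16 libraries kept share no identical profile. The identical values stand under names of different mice, and metastasis TME replicates 6 and 8 and metastasis MM replicate 6 are 1 such set, used here as TME replicate 6. By the mouse numbers in the deposited cell table, metastasis and primary tumor replicates 5 and 6 pair by mouse, as do MM replicates 5. The pooled replicates 1-3 share 2 mice, beside 1 mouse in the primary tumor alone, while replicates 4 and the lung libraries are other mice. The table's names give 3 runs (replicate 1 or 1-3, replicate 4, and replicates 5 with 6) and do not say what a run was. Some of its names carry another replicate number than the label they were matched to, by mouse or by elimination.

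Cells were clustered with Seurat 5.3.0 (2000 variable genes, 17 components, resolution 0.5, and 12 components for subclusters) without the 10 members among the variable genes. A marker counted as raised at a log2 fold over 1 and in at least 10% of cells, and clusters were named from at least 3 raised markers that made up most of a list, with a slightly lower share allowed for subclusters. Clusters stayed unnamed where lists of several types were raised with none leading or with high UMI counts, or where UMI counts were low with no own marker among the top 10 genes. A cluster led by Col2a1 and a subcluster led by Top2a were left unnamed by their leading genes, after these were seen. A subcluster with more markers of another class than of its own among its top 10 genes stayed unnamed. Subclusters of fibroblasts led by markers of another type were left out, and those of endothelial cells were kept, with their omission as an alternative. UMIs were summed per library and type for at least 20 cells and tested with edgeR 4.0.16 (quasi-likelihood test, TMM scaling, filterByExpr, R 4.3.3, limma 3.58.1) with Benjamini-Hochberg adjustment over all genes tested. The SE beside an edgeR log2 change is the size of the change over the square root of the test's F statistic, not a fitted standard error. DESeq2 1.42.0, no filter, at least 10 cells, clustering with the members kept, a replicate block and omission of each library were alternatives. The fits were tested on simulated counts with known changes. The replicate numbers were checked for pairing: in endothelial cells, metastasis and primary tumor libraries that share mice had r = 0.145, 0.160 and 0.167 (replicates 1-3, 5 and 6), while libraries of different mice reached 0.135 between these tissues and 0.275 between metastasis and lung. For fibroblasts, C1q macrophages and MM cells, correlations with a group of 2 libraries mirror each other, so they cannot decide whether libraries pair. In MM cells both pairs of equal number had r = 0.386 and both pairs of unequal number -0.386. Of the equal pairs, replicates 5 share a mouse and replicates 4 do not. Primary tumor and lung fibroblasts, from different mice, had r = 0.0565, 0.144 and 0.0234 at equal replicate numbers and -0.0996 to 0.0111 at others. Metastasis and lung C1q macrophages, also from different mice, had 0.120, -0.00518 and 0.0799 at equal numbers and -0.149 to 0.146 at others. The block also joins libraries of the same number from other mice, lung libraries included.

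Levels are CPM, and intervals from counts of 0 (3 UMIs of the total) cover counting error only. The genes named are the 10 members, the genes of the 32-gene list called in a contrast with the largest changes named, and for each member the 3 most similar genes among those with at least 20 CPM in a type. The members and lists were chosen with earlier results of these data known. Promoter sequences are RefSeq reference sequence in GRCm38.p6, and gene positions are from GENCODE vM21.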

Additional observations from a re-analysis of the deposited data

Results flagged for a closer look

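Igf1 in endothelial cells of the unchallenged lung was 3.40 CPM in replicate 6, apart from the other 3 lung libraries at 0.432 to 0.675 CPM. That value rests on 4 UMIs, and the level stayed below every primary tumor library. It was not particular to endothelial cells. NK, ciliated, club, AT-2 and B cells of lung replicate 6 had 13.7, 11.9, 11.3, 9.25 and 8.97 CPM of Igf1, more than in any other lung library with enough cells. T cells and neutrophils of that library had 0 UMIs. Its median was 1605 UMIs per cell, against 3908, 4695 and 3641 in lung replicates 1, 4 and 5, and the part of this was not tested. Igfbp7 in endothelial cells of metastasis replicate 5 was 1487 CPM, apart from 685 to 726 CPM in the other 3 metastasis libraries. Igfbp4 in C1q macrophages of metastasis replicate 4, a library with 26 such cells, was 0.0 CPM, apart from the nearest library at 30.8 CPM, and a count of 0 there allows up to 25.05 CPM. These were 3 of 38 groups examined for a library far from the rest, where chance alone would give about 1 in 20.

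The change between tissues differed between endothelial cells and fibroblasts for 4 members. The endothelial change minus the fibroblast change was 10.96 for Igfbp3 in metastasis against lung and 11.03 in primary tumor against lung, and in primary tumor against lung it was 5.78 for Igf2, 4.66 for Igf1 and 4.76 for Igfbp6, all on the log2 scale. Adjusted p-values from edgeR's quasi-likelihood test of the difference were 2.11e-06, 7.97e-08, 0.000513, 1.08e-05 and 0.00116 in this order. The metastasis libraries in this test were replicates 5 and 6 alone, the higher in endothelial Igfbp3 (490 and 590 CPM, against 52.7 and 28.9 CPM in replicates 1-3 and 4). The test was added after the values had been seen.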

How the results depend on the processing

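Of 45 member calls, 36 held in every alternative where the gene was tested and all 45 kept their direction. Fibroblasts without mesothelial and mural cells came from 1 metastasis library, and only primary tumor against lung was fitted there. Where leaving out a library left 1 in a group, it was assumed to vary like the other groups. Where a value below moved, the cause was not tested, except that fewer libraries were used when one was left out.

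Counts of members called in fibroblasts moved from 0 to 1 with DESeq2 and 2 with no filter on low counts for metastasis against primary tumor (0 to 1 with a library left out), from 2 to 0 with the members kept in clustering and 0 with all fibroblast cells for metastasis against lung (0 to 3 with a library left out), and from 4 to 2 in each of those alternatives for primary tumor against lung (1 to 4 with a library left out). In endothelial cells the 5 called between metastasis and primary tumor became 2 without subclusters led by another type and 2 to 5 with a library left out. In C1q macrophages the 1 called became 4 with no filter for metastasis against lung (1 to 2 with a library left out) and 3 with no filter for primary tumor against lung (1 to 3). In MM cells the 0 called became 1 with no filter and 1 with the replicate block (0 to 1 with a library left out). For the change in endothelial cells minus fibroblasts, 1 became 4 with no filter (1 to 2 with a library left out) in metastasis, and 4 stayed between 4 and 7 with a library left out in the primary tumor. The mean level of Igfbp4 in adventitial fibroblasts was 2665 CPM with at least 20 cells and 2066 CPM with at least 10.

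With the replicate number as a block, Igfbp5 in endothelial cells became called between metastasis and primary tumor (-2.14, adjusted p = 0.0273), as did Igf2 in fibroblasts against lung (-4.37, adjusted p = 0.0150) and Igfbp7 in MM cells (1.94, adjusted p = 0.0112), and no call was lost. Directions turned with the block, none called, for Igfbp6 in fibroblasts of metastasis against primary tumor (-0.25), Igfbp7 in endothelial cells of metastasis against lung (0.28) and Igf1r in C1q macrophages of metastasis against primary tumor (-0.055). Libraries with the same number share a mouse in part, as stated in the methods.

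Other changes also turned direction when a library was left out or a setting changed, none of them called except Igfbp7 in MM cells. In fibroblasts of metastasis against primary tumor, leaving out a library gave -0.28 to 0.51 for Igf1r, -4.20 to 0.51 for Igf2, -0.32 to 0.61 for Igf1, -0.11 to 0.99 for Igfbp4 and -1.20 to 0.87 for Igfbp6. Against lung it gave -0.020 to 0.75 for Igfbp7, -1.02 to 0.26 for Igfbp4 and -1.99 to 0.091 for Igfbp6 in metastasis, and -0.17 to 1.04 for Igfbp5 in the primary tumor. In endothelial cells Igfbp7 in metastasis against lung ranged from -0.72 to 0.21 and was 0.057 without subclusters led by another type. In C1q macrophages Igf1 ranged from -0.25 to 0.30 between metastasis and primary tumor (-0.062 with no filter) and from -0.46 to 0.079 between metastasis and lung. In MM cells the ranges were -2.35 to 0.12 for Igfbp2, -0.16 to 4.12 for Igfbp7, -0.36 to 1.22 for Igf1r, -2.61 to 0.41 for Igf1, -1.66 to 2.14 for Igfbp3 and -0.21 to 0.68 for Igf2r; the values of Igfbp7 without each of the other 3 libraries were called.

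For the endothelial minus fibroblast change in metastasis against lung, Igfbp7 was 0.066 with DESeq2, 0.0085 with no filter, 0.054 with at least 10 cells and 0.48 without subclusters led by another type (-0.14 to 0.21 with a library left out), and Igf1r was 0.068, 0.011 and 0.054 in the same first 3 and 0.087 with the members kept in clustering (-0.011 to 0.091). Igfbp4 ranged from -1.16 to 0.57 and Igf2r from -0.48 to 0.11 with a library left out, and Igf2r in the primary tumor was 0.031 without subclusters led by another type.

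Counts of all genes called moved as follows. In fibroblasts, metastasis against primary tumor gave 432 genes, 1034 with no filter, 163 with the members kept in clustering, 133 with all fibroblast cells and 86 to 560 with a library left out. Metastasis against lung gave 631, 1387, 132, 121 and 141 to 643, and primary tumor against lung 1825, 2781 with no filter and 1027 to 2100 with a library left out. In endothelial cells the counts were 1150 (688 without subclusters led by another type, 742 to 1534) for metastasis against primary tumor and 327 (503 with DESeq2, 728 with no filter, 112 to 843) for metastasis against lung. In C1q macrophages they were 0 (18 with DESeq2, 224 with no filter, 10 with the block), 514 (852 with no filter, 270 with the block) and 611 (1640 with no filter, 211 with the block, 95 to 853), and in MM cells 0 (29 with DESeq2, 87 with no filter, 115 with the block, 29 to 52 with a library left out). The endothelial minus fibroblast change gave 431 genes in metastasis (823 with no filter, 137 with the members kept in clustering, 147 to 507).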

Other observations

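Some cells were in no comparison between tissues, although they count in the levels by cell type. The 2132 MM cells in metastasis TME replicate 5 had 19.3 CPM of Igfbp7, 16.4 CPM of Igf1r and 61.2 CPM of Igfbp4. The 63 neutrophils in metastasis MM replicate 4 had 263 CPM of Igfbp6, from 65 UMIs.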
